A study of Rattus norvegicus with 16 samples.

Results

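The effect of a maternal low protein diet was examined in the ventral prostate of old rats, by comparing every gene between 2 groups of offspring whose glands were taken on postnatal day 540. The control group (CTR) came from dams on a normal diet with 17% protein. The low protein group (GLLP) came from dams that received a diet with 6% protein during gestation and lactation. All libraries of that age were used, 5 from CTR and 4 from GLLP, which are 9 of the 16 samples of the series. They are called CTR1 to CTR5 and GLLP1 to GLLP4 by the numbers in their labels. Glands were frozen in liquid nitrogen, RNA was extracted with Trizol, and total RNA was sequenced by a company from standard Illumina libraries. No source used here names the strain or the litters of the rats. The p-values therefore cover the spread over these glands only. Levels are given in CPM, which are counts divided by the scaled library size of each gland. Each contrast was fitted with all 9 libraries and again without CTR5, a library that stands far from the others.

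The ventral lobe of the rat prostate is an androgen-dependent gland. Its luminal cells secrete prostatein, a steroid-binding protein built from secretoglobin subunits, together with a spermine-binding protein and tissue kallikreins. Around the acini lie basal cells and a stroma of smooth muscle, fibroblasts, vessels and nerves, and with age the lobe can gather immune cells. Protein restriction before weaning is studied because it can alter growth and hormone levels of the offspring and, through them, the growth of androgen-dependent organs.

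The defining genes of the ventral lobe were abundant in every library. The 5 genes with the most counts, the prostatein subunit genes Psbpc2, Scgb1d2 and Scgb2a2, the proline-rich protein gene Prp2l1 and Zg16b, took from 6.02% of the counts in CTR4 to 19.6% in CTR3. RefSeq lists Zg16b as a synonym of Sbp, the spermine-binding protein gene, and Scgb2a2 as a synonym of Scgb2a1, so the counts of the last pair may be split between near-identical copies. Of 11 seminal vesicle genes listed, 9 had an entry in the counts and 1 passed the filter on low counts, the semenogelin gene Semg1. Semg1 was not near that filter outside CTR5, as its levels given below show. Krt4 of the urothelium lay between 0.718 CPM in GLLP2 and 9.91 CPM in GLLP4, and Ckm of striated muscle between 0.286 CPM in CTR1 and 1.51 CPM in CTR4. These are single examples, and the most abundant members were Upk1a in the urothelium list and Acta1 in the skeletal muscle list. The urothelium list as a whole ran from -1.49 in GLLP2 to 1.35 in GLLP4. The skeletal muscle list ran from -0.43 in CTR1 to 0.90 in CTR5. These values are the mean log2 CPM of the tested genes less their mean over 9 libraries. Admixture of other tissue was not tested.

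Totals ran from 28748604 to 37587255 counts per library. In a principal component analysis of log2 CPM the first component took 52.9% of the variance, with CTR5 at 173 and the other 8 libraries between -35.8 and 2.03. CTR5 was strictly the highest or the lowest of 9 at 70.7% of tested genes, against 7.56% to 25.6% in each other library. Without CTR5 the first 3 components took 30.6%, 24.7% and 14.5% of the variance. Their ends were held by libraries of different diets: on the first, GLLP4 lay at -57.1 and CTR1 at 58.4, and CTR3 and GLLP1 lay next to each other near 0.

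**Figure D1:**
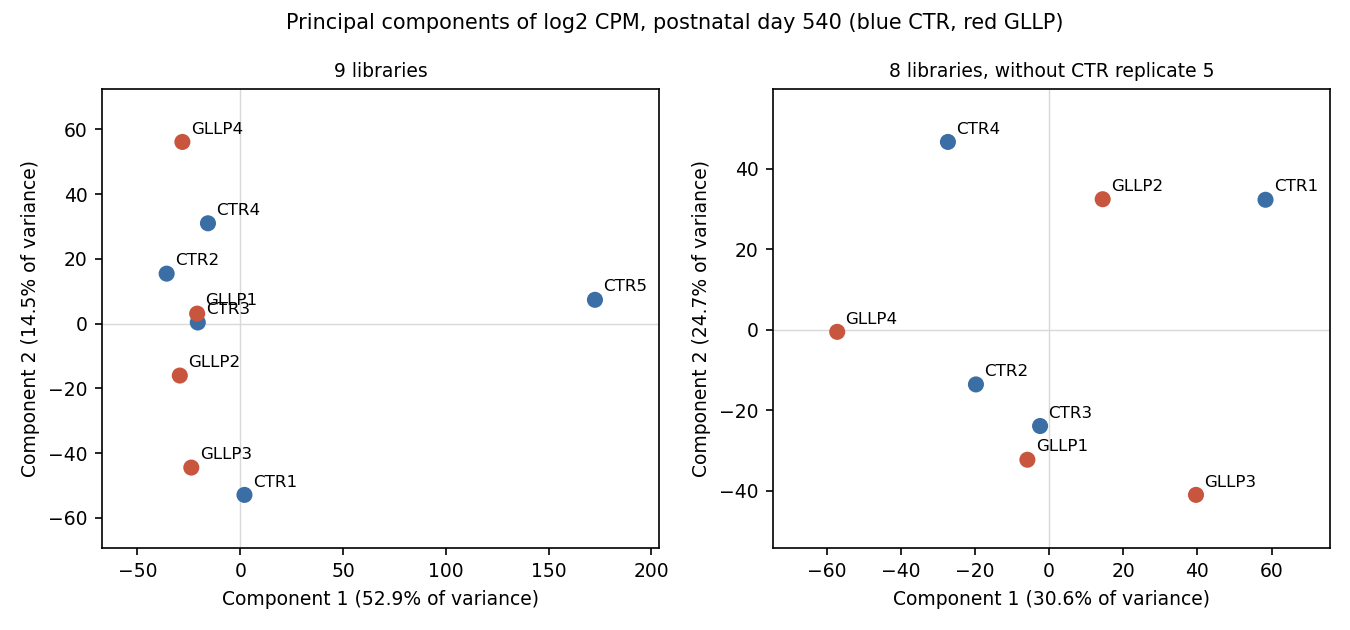
Principal components of log2 CPM, each point a library, blue for CTR and red for GLLP; the axes give the component scores and their share of the variance, with all 9 libraries on the left and without CTR5 on the right. CTR5 sits alone at 173 on the first component of 9 libraries, and blue and red points intermix on the right.

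No gene passed an adjusted p of 0.05 in the diet contrast by edgeR or limma voom, and 2 did by DESeq2. With 9 libraries, edgeR called 0 of 14767 tested genes (0%), and the smallest adjusted p was 0.914. An unadjusted p under 0.05 was reached by 123 genes (0.833%), 31 with higher values in GLLP (0.21%) and 92 with lower values (0.623%). Without CTR5, edgeR called 0 of 14638 genes (0%), with 110 (0.751%) under an unadjusted p of 0.05, 43 higher (0.294%) and 67 lower (0.458%). DESeq2 called the genes Fuom and Marf1 in both fits (0.0135% with 9 libraries and 0.0137% without CTR5), and had 259 (1.75%) and 147 (1%) genes under an unadjusted p of 0.05. Limma voom with sample weights called 0 in both, with 180 (1.22%) and 129 (0.881%) under the unadjusted threshold. Where no gene differs, such a threshold passes a share of about 0.05 of genes on average, and all these shares are smaller. Leaving out CTR5 lowered the median standard error of the log2 fold change from 0.37 to 0.23, and the median size of the fold change from 0.26 to 0.12.

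Genes whose groups did not overlap, so that every GLLP library lay on 1 side of every CTR library, were few. With 9 libraries, 27 genes (0.183%) lay higher and 31 (0.21%) lower in GLLP. Without CTR5 there were 37 (0.253%) and 53 (0.362%). How many such genes random group labels would give was not computed.

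Fuom, which encodes a fucose mutarotase, had the smallest p of all genes. CTR1 to CTR5 held 4.79, 0.643, 1.97, 2.05 and 2.37 CPM and GLLP1 to GLLP4 held 0.217, 0.179, 0.126 and 0.483 CPM. Every GLLP library lay below every CTR library, with a log2 fold change of -3.21 (SE 0.65, edgeR adjusted p = 0.914; without CTR5 -3.20, SE 0.68). The gene is weakly expressed, and CTR2 stood closest to the GLLP range. Its DESeq2 adjusted p was 0.00325 with 9 libraries and 0.0319 without CTR5.

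Marf1, a regulator of RNA turnover known from meiosis in oocytes, stood on the other side. It was at 0.286, 1.31, 0.229, 0.805 and 0.137 CPM in CTR1 to CTR5, against 5.15, 7.77, 1.39 and 5.90 CPM in GLLP1 to GLLP4. The groups did not overlap, although GLLP3 at 1.39 CPM lay just above CTR2 at 1.31 CPM. The log2 fold change was 3.17 (SE 0.71, edgeR adjusted p = 0.914; without CTR5 2.92, SE 0.68), and the DESeq2 adjusted p was 0.0189 and 0.0319.

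Other genes with small p-values were also low or rested on few libraries. The potassium channel gene Kcnk3 stood at 0.143, 0.671, 0.400, 0.732 and 0.515 CPM in CTR, against 1.86, 0.987, 1.42 and 1.70 CPM in GLLP, without overlap (log2 fold change 1.59, SE 0.47). Car6, a secreted carbonic anhydrase, stood at 0.143, 1.06, 0.0857, 1.32 and 1.75 CPM in CTR, against 2.27, 2.15, 13.4 and 3.72 CPM in GLLP (fold change 2.62 on the log2 scale, SE 0.88). GLLP3 carried the highest Car6 value, and the other GLLP libraries lay close above CTR5. Without GLLP3 its log2 fold change was 1.63. Hprt1, a purine salvage enzyme gene, was at 17.2 CPM in GLLP1 and at 0.0244 to 0.718 CPM in the other 8 libraries. Its log2 fold change was 4.67, and 1.29 without GLLP1. Capns1, the small calpain subunit gene, was at 25.3 CPM in GLLP1 and 32.3 CPM in GLLP3, and at 0.114 to 0.928 CPM in the rest, which include GLLP2 and GLLP4. The counting tool and annotation are not known, so the counts of Hprt1 and Capns1, high in few libraries only, are uncertain. The T cell receptor segment Tcrva8 reached 6.13 CPM in GLLP2 and at most 1.64 CPM elsewhere. Its log2 fold change was 2.49, and 1.32 without GLLP2.

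Among genes with lower values in GLLP, Cyp2c11, a male-specific cytochrome P450 of the liver, was at 0.572, 0.839, 0.743, 6.07 and 1.13 CPM in CTR, against 0.248, 0.150, 0.126 and 0.397 CPM in GLLP. The groups did not overlap (log2 fold change -3.00, SE 0.85), and CTR4 was far above the other CTR libraries. Without CTR4 the log2 fold change was -1.80. The class I histocompatibility gene RT1-CE3 was at 30.4, 5.54, 9.57, 26.3 and 56.0 CPM in CTR, against 8.10, 7.39, 4.62 and 4.46 CPM in GLLP. CTR2 lay within the GLLP range of RT1-CE3, and the counts of such class I genes may be split between near-identical copies. Echs1, an enzyme of fatty acid oxidation, was at 6.37, 4.92, 18.4, 9.32 and 12.8 CPM in CTR, against 5.19, 4.78, 3.64 and 2.53 CPM in GLLP (fold change -1.36 on the log2 scale, SE 0.43). The groups overlapped through CTR2. Slc38a8, an amino acid transporter gene, lay at 0.543 to 5.26 CPM in CTR and 0.0948 to 0.568 CPM in GLLP. Atp5f1, an ATP synthase subunit gene, was at 20.3 CPM in CTR1 and 17.9 CPM in CTR3 and at 0.538 to 1.23 CPM in the other 7 libraries. Its counts are uncertain for the same reason as those of Hprt1 and Capns1.

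Some genes, named because their groups did not overlap, had small differences without CTR5. Epas1, a hypoxia-inducible transcription factor gene, was at 33.2, 43.6, 41.1 and 31.1 CPM in CTR1 to CTR4, at 0.550 CPM in CTR5, and at 48.7, 47.9, 46.3 and 44.6 CPM in GLLP. All GLLP libraries lay above all CTR libraries, with a log2 fold change of 0.33 without CTR5 (SE 0.13, unadjusted p = 0.0302 by edgeR) and 0.65 with it (SE 0.75). The smallest edgeR adjusted p of any gene without CTR5 was 0.9996. Stard13, a GTPase regulator gene, behaved alike: 26.9, 38.2, 33.4 and 30.0 CPM in CTR1 to CTR4, 9.90 CPM in CTR5, and 39.7, 44.3, 40.4 and 38.8 CPM in GLLP. Its log2 fold change without CTR5 was 0.34 (SE 0.13). Erg, an endothelial transcription factor gene on the prostate tumour list, had a larger and less even difference. It was at 0.787, 1.87, 1.91, 1.44 and 0.137 CPM in CTR, against 3.60, 1.91, 2.59 and 3.35 CPM in GLLP, with CTR3 and GLLP2 almost equal. Gramd1c (4.44 to 4.89 CPM in CTR1 to CTR4, 0.0687 CPM in CTR5, 5.77 to 6.37 CPM in GLLP) and Ralgps2 had the same order of libraries.

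The opposite order was seen in genes that were far above the rest in CTR5. Smim22, a small membrane protein gene, was at 60.5, 51.8, 51.5 and 59.5 CPM in CTR1 to CTR4, at 292 CPM in CTR5, and at 46.7, 49.3, 40.2 and 46.6 CPM in GLLP. The log2 fold change was -1.17 (SE 0.55) with CTR5 and -0.29 (SE 0.11) without it, and the groups did not overlap either way. Nrtn, which encodes the growth factor neurturin, was at 5.98 to 6.15 CPM in CTR1 to CTR4, 44.8 CPM in CTR5 and 3.89 to 5.88 CPM in GLLP. Its log2 fold change was -1.49 with CTR5 and -0.31 without it. Atrip, Fdxr, Shkbp1 and Fra10ac1 had the same pattern, with log2 fold changes of -1.23, -0.91, -0.85 and -0.77 with CTR5 and of -0.41, -0.26, -0.28 and -0.25 without it.

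**Figure D2:**
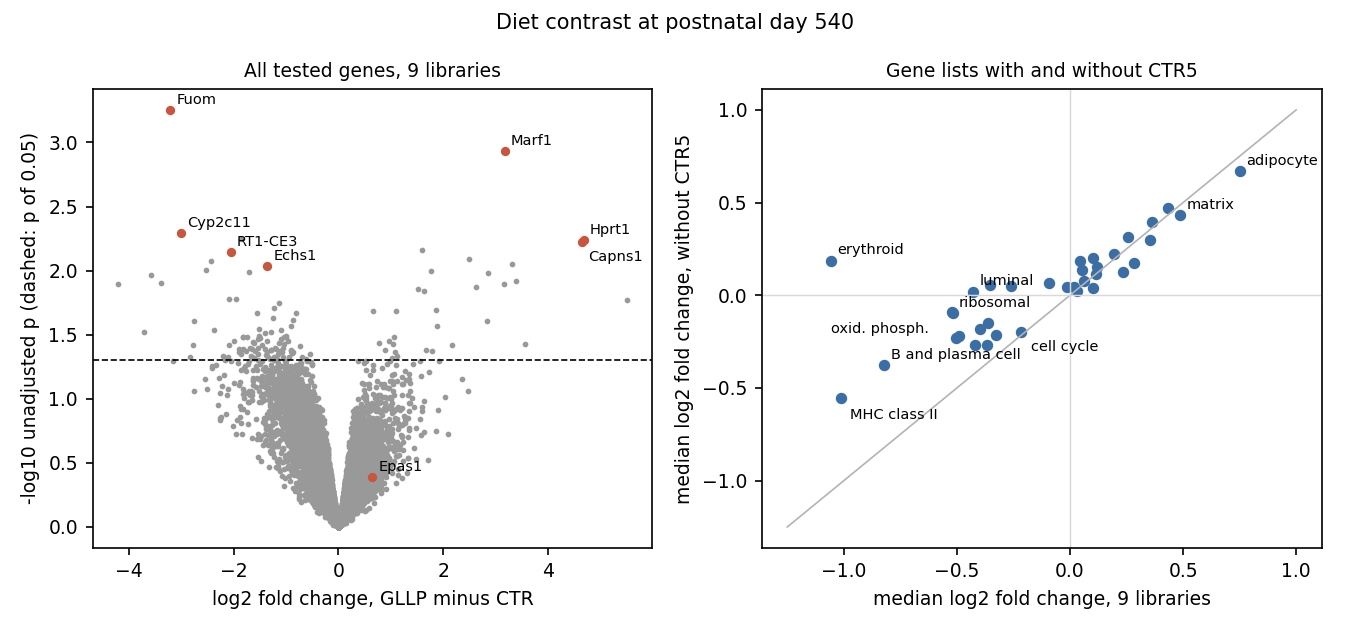
Left, log2 fold change (GLLP minus CTR) against -log10 of the unadjusted p for 14767 genes with 9 libraries, each point a gene and the dashed line an unadjusted p of 0.05; right, the median log2 fold change of each gene list with 9 libraries against that without CTR5, each point a list. No gene passes the adjusted threshold of edgeR, whose p-values are drawn, and lists such as ribosomal proteins lie near 0 on the vertical axis while they are negative on the horizontal one.

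The listed genes of cell types and pathways were described by their medians and counts, and no list was tested. Over 38 lists with a tested member, 9 of 756 distinct genes (1.19%) had an unadjusted p under 0.05 by edgeR and 4 (0.529%) had groups that did not overlap. Of all genes 0.833% were under that p, and 0.183% higher and 0.21% lower in GLLP had no overlap. The genes without overlap were Mylpf, Epas1, Erg and Cyp2c11. Of all tested genes 50% had positive and 50% negative fold changes with 9 libraries, and 52.9% and 47.1% without CTR5. The median log2 fold change was near 0 in both. The summed level of a list in a library, called its score, is the mean log2 CPM of its genes less the mean over 9 libraries. The scores of the groups overlapped for each list, with CTR5 and without it. In such bulk samples fewer cells of a type and less RNA per cell cannot be told apart.

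The secreted proteins differed more between glands than between diets. Scgb1d2, a prostatein subunit gene, was at 40041, 35819, 55917, 10685 and 40699 CPM in CTR1 to CTR5, against 50829, 8817, 43022 and 20180 CPM in GLLP1 to GLLP4. CTR4 and GLLP2 held the lowest levels, 1 from each diet, and the log2 fold change was -0.25 (SE 0.58). Scgb2a1, another subunit gene, was at 6728, 6733, 8416, 1095 and 1199 CPM in CTR, against 7896, 1506, 4165 and 3832 CPM in GLLP, again low in CTR4 and GLLP2 and also in CTR5. Zg16b was at 11502, 25668, 34422, 4526 and 8654 CPM in CTR, against 32854, 16238, 29026 and 16097 CPM in GLLP. Its lowest level was in CTR4, and its groups overlapped.

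Kallikrein and cystatin-related genes had a still wider range. Andpro, listed by RefSeq also as Crp1 (cystatin-related protein), was at 83.4, 3946, 16236, 63.2 and 151 CPM in CTR1 to CTR5, against 12348, 208, 8012 and 2837 CPM in GLLP1 to GLLP4. Its highest and lowest values were both in CTR, 257-fold apart over the 8 libraries other than CTR5. Klk1c8, a tissue kallikrein gene, was at 12.1, 108, 1550, 2.12 and 47.8 CPM in CTR, against 744, 17.4, 729 and 158 CPM in GLLP. Klk1c9, a related kallikrein gene, was at 1390, 4361, 12509, 300 and 2847 CPM in CTR, against 10852, 885, 13503 and 4601 CPM in GLLP. CTR1, CTR4 and GLLP2 held the lowest levels of Andpro, Klk1c8 and Klk1c9 among the 8 libraries, and CTR3, GLLP1 and GLLP3 the highest. Rat kallikrein genes are near-identical copies of each other, so their separate counts are uncertain.

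The 250 bases before the RefSeq start of a variable kallikrein, a variable cystatin-related gene and a steadier prostatein subunit gene are shown because the secretory genes of this lobe are androgen-regulated. They come from the RefSeq promoter table of build GRCr8, and capitals mark the half-site of the androgen response element, AGAACA or, on the other strand, TGTTCT. The regions are chr3:157178105-157178354 (minus strand) for Andpro, chr1:103684043-103684292 (plus strand) for Klk1c8 and chr1:215922501-215922750 (plus strand) for Scgb2a1.
Andpro: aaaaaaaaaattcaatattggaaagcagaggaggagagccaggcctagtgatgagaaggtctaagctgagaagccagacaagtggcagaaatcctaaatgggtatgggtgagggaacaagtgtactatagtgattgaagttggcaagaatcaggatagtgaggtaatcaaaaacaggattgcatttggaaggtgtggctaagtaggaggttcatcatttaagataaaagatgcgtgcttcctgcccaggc
Klk1c8: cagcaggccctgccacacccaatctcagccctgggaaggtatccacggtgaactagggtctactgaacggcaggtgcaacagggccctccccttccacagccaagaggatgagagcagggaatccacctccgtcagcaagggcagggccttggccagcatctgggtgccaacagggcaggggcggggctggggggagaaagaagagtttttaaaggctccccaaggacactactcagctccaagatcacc
Scgb2a1: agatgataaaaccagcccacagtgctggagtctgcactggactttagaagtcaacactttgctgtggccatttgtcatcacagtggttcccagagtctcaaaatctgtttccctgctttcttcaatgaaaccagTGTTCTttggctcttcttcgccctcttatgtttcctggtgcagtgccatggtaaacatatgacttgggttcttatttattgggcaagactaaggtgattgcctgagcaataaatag
The window of Scgb2a1 held 1 half-site, which begins 116 bases before the start, and those of Andpro and Klk1c8 held 0. Of 27457 promoter windows of that length in the table, 17.08% held at least 1.

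Some secreted proteins had very low levels in CTR5. Semg1 was at 1623, 742, 2792, 165 and 1.03 CPM in CTR1 to CTR5, against 1063, 158, 105 and 198 CPM in GLLP1 to GLLP4. Msmb, the microseminoprotein gene, was at 275, 118, 263, 23.1 and 0.241 CPM in CTR, against 100, 110, 13.3 and 34.5 CPM in GLLP. For both genes CTR4 was the lowest of the other CTR libraries and lay inside the GLLP range. Pbsn, which encodes probasin, was at 20.9, 7.58, 34.2, 0.902 and 0.0344 CPM in CTR, against 4.81, 23.7, 0.632 and 1.22 CPM in GLLP. Their log2 fold changes were -1.48 (SE 1.38), -1.07 (SE 1.23) and -0.74 (SE 1.39). Clu, which encodes the chaperone clusterin, had its highest level in CTR5 at 17706 CPM, followed by CTR4 at 9566 CPM, with 1160 to 6511 CPM elsewhere. Of 15 tested secretory genes 2 had positive values with 9 libraries (median -0.33) and 4 without CTR5 (median -0.21). That list does not hold Zg16b, Prp2l1, Klk1c8 or Klk1c9, so its counts do not cover these secretory genes. The median was -0.05 without CTR3 and -0.58 without GLLP1.

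The steroid receptor genes described here overlapped between the diets. Esr2, the epithelial estrogen receptor gene, was at 8.98, 42.4, 15.9, 12.2 and 1.61 CPM in CTR, against 12.4, 7.95, 22.0 and 22.7 CPM in GLLP, with CTR2 the highest and CTR5 the lowest. Esr1, the other estrogen receptor gene, stayed between 0.448 and 1.06 CPM in all libraries. Nr3c1, the glucocorticoid receptor gene, was at 13.6 CPM in CTR5 and between 45.8 and 64.1 CPM in the other 8.

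Fkbp5, an androgen- and glucocorticoid-induced cochaperone gene, was at 628 to 1055 CPM in CTR1 to CTR4, 350 CPM in CTR5, and 642 to 1567 CPM in GLLP, with GLLP3 the highest. The androgen response list had a median of 0.06 with 9 libraries (18 of 30 positive) and 0.07 without CTR5 (21 of 30 positive). The median was 0.19 without CTR4 and 0.0002 without GLLP3. The score of this list was -0.87 in CTR5 and between -0.07 and 0.27 in the other libraries.

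Among epithelial keratins, Krt18, a luminal keratin gene, was at 558, 365, 476, 519 and 1478 CPM in CTR, against 555, 614, 354 and 330 CPM in GLLP, so CTR5 stood apart and the others intermixed. Krt5, of basal cells, was at 45.9 to 81.5 CPM in CTR1 to CTR4, 176 CPM in CTR5 and 47.8 to 73.1 CPM in GLLP. The luminal list had a median of -0.43 with CTR5 and 0.02 without it, and of -0.15 without CTR1 and -0.51 without CTR2. The basal list had medians of 0.02 and 0.05, and of -0.17 without GLLP4 and 0.13 without GLLP3.

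Stromal genes leaned higher in GLLP in both fits, with wide overlap. Of 31 extracellular matrix genes 29 had positive fold changes with 9 libraries (median 0.49), and 30 without CTR5 (median 0.43), and none had a p under 0.05. Col3a1, a fibrillar collagen gene, was at 8.51, 48.5, 62.2, 31.2 and 4.36 CPM in CTR1 to CTR5, against 76.7, 14.9, 69.7 and 78.3 CPM in GLLP1 to GLLP4 (fold change 0.95 on the log2 scale, SE 0.73). GLLP1, GLLP3 and GLLP4 lay above all CTR libraries, and GLLP2 lay between CTR1 and CTR4. Dcn, the proteoglycan decorin gene, was at 28.4, 210, 200, 139 and 37.6 CPM in CTR, against 283, 85.0, 165 and 289 CPM in GLLP, with CTR1 the lowest. The matrix score was -1.54 in CTR1, -1.09 in GLLP2 and -0.72 in CTR5, and between -0.01 and 0.94 in the other 6 libraries. The median of the matrix list was 0.30 without CTR1, 0.32 without GLLP1, 0.33 without GLLP4 and 0.81 without GLLP2.

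The endothelial list was low in the same glands by its score, but not gene by gene in CTR5. CTR5 was the highest library at 4 and the lowest at 4 of the 14 genes. The endothelial score was -0.89 in CTR1, -0.60 in GLLP2 and -0.57 in CTR5, and 12 of 14 genes had positive diet values (median 0.36; 14 of 14 and 0.40 without CTR5). Vwf, the von Willebrand factor gene, was at 7.98, 17.3, 22.8, 10.5 and 23.1 CPM in CTR, against 24.2, 9.72, 24.9 and 20.2 CPM in GLLP. Myh11, the smooth muscle myosin gene, was at 109, 275, 310, 287 and 243 CPM in CTR, against 275, 152, 218 and 416 CPM in GLLP, lowest in CTR1 and GLLP2. The smooth muscle list had medians of 0.10 and 0.20, and of -0.07 without CTR1, -0.09 without GLLP4 and 0.34 without GLLP2. The endothelial median was 0.21 without CTR1 and 0.59 without GLLP2. Igf1, a growth factor gene expressed in prostate stroma, was at 2.97, 21.1, 13.7, 9.15 and 3.09 CPM in CTR, against 22.8, 6.37, 19.7 and 34.7 CPM in GLLP (fold change 1.06 on the log2 scale, SE 0.63). Its low libraries were CTR1, CTR5 and GLLP2, those with low matrix scores.

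Adipocyte genes had a list median of 0.75 with 9 libraries and 0.67 without CTR5, with 17 of 19 and 18 of 19 positive values. Adipoq, the adiponectin gene, was at 0.716, 69.0, 7.34, 15.4 and 17.5 CPM in CTR1 to CTR5, against 44.3, 24.8, 24.2 and 68.1 CPM in GLLP1 to GLLP4. CTR2 was as high as the highest GLLP library, and CTR1 held almost none. Plin1, the lipid droplet coat gene, was at 0.0716 CPM in CTR1 and 23.3 CPM in CTR2, and at 7.68 to 25.9 CPM in GLLP. The list's score was -2.92 in CTR1, from -0.54 to 1.30 in the other CTR libraries and from 0.17 to 1.32 in GLLP. Without CTR1 the median was 0.46, without GLLP4 0.39 and without CTR2 1.32. The part of adipose tissue around the gland in the stromal values was not tested.

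Complement genes followed the stroma. Of 20 genes 16 had positive values (median 0.43; 0.47 without CTR5). C4b was at 12.2, 45.8, 61.0, 22.3 and 31.1 CPM in CTR, against 100, 24.8, 92.0 and 82.5 CPM in GLLP (fold change 1.12 on the log2 scale, SE 0.49, unadjusted p = 0.0466, edgeR adjusted p = 0.914). GLLP1, GLLP3 and GLLP4 were above all CTR libraries, and GLLP2 was within their range. Without GLLP1 the list median was 0.24, and without GLLP2 it was 0.70.

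Genes of antigen presentation leaned lower in GLLP, and by less without CTR5. Of 10 MHC class II genes 9 had negative values in both fits, with a median of -1.01 with CTR5 and -0.55 without it. Cd74, the invariant chain gene, was at 575, 159, 120, 350 and 1343 CPM in CTR1 to CTR5, against 133, 191, 154 and 298 CPM in GLLP1 to GLLP4 (fold change -1.39 on the log2 scale, SE 0.66; without CTR5 -0.63, SE 0.48). CTR1, CTR4 and CTR5 were above all GLLP libraries, CTR2 was among them and CTR3 was below them. RT1-Db1, a class II beta chain gene, was at 86.1, 15.7, 16.7, 32.6 and 65.8 CPM in CTR, against 14.3, 19, 14.2 and 29.0 CPM in GLLP (unadjusted p = 0.0494, edgeR adjusted p = 0.914), with the same 3 CTR libraries on top.

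Interferon and class I genes were arranged alike. Of 31 tested 26 had negative values (median -0.50) with 9 libraries and 24 without CTR5 (median -0.23). RT1-CE5, a class I gene with near-identical copies, was at 145, 56.0, 66.8, 102 and 233 CPM in CTR, against 63.6, 57.0, 42.2 and 57.4 CPM in GLLP (fold change -1.13 on the log2 scale, SE 0.40, unadjusted p = 0.0179). CTR2 lay within the GLLP range. Psmb9 and Tap1, which make and transport peptides for class I molecules, had log2 fold changes of -1.20 (SE 0.51) and -1.06 (SE 0.45), and -0.73 and -0.55 without CTR5.

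Lymphocyte genes differed between single glands. Igha, the immunoglobulin A heavy chain gene of plasma cells, was at 381, 10.2, 4.57, 58.6 and 344 CPM in CTR1 to CTR5, against 4.07, 136, 15.6 and 8.23 CPM in GLLP1 to GLLP4. Jchain, which joins immunoglobulin A units, was at 57.0, 2.43, 1.74, 9.95 and 2.68 CPM in CTR, against 1.61, 23.0, 2.78 and 1.79 CPM in GLLP. CTR1 was highest for both, GLLP2 held the highest GLLP level of both, and CTR5 was high for Igha and not for Jchain. Cd3d, a T cell receptor complex gene, was at 1.40, 0.224, 0.885, 0.561 and 2.82 CPM in CTR, against 0.528, 0.239, 0.190 and 0.568 CPM in GLLP, highest in CTR5 and CTR1 (unadjusted p = 0.0478 by edgeR). The T cell list had a median of -0.42 with 9 libraries and -0.27 without CTR5, and the macrophage list -0.49 and -0.22. Without GLLP2 the T cell median was -0.24, and without CTR4 the macrophage median was -0.20. The B and plasma cell list had a median of -0.82, which was -0.38 without CTR5 and 0.06 without CTR1.

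Lipid and secretory pathway genes leaned slightly higher in GLLP. Of 32 cholesterol and fatty acid synthesis genes 28 had positive values (median 0.36; 27 and 0.30 without CTR5). Msmo1, a sterol synthesis enzyme gene, was at 154, 103, 79.6, 40.7 and 60.3 CPM in CTR, against 154, 79.3, 248 and 96.1 CPM in GLLP, highest in GLLP3 and lowest in CTR4. The median of that list was 0.08 without GLLP3 and 0.17 without CTR4. Of 40 endoplasmic reticulum genes 27 had positive values with 9 libraries (median 0.12) and 37 without CTR5 (median 0.15). Hspa5, the main chaperone gene of that compartment, was at 2375, 1777, 1160, 818 and 1568 CPM in CTR, against 1738, 1731, 2555 and 1556 CPM in GLLP. GLLP3 again held the highest value and CTR4 the lowest, and all GLLP values lay inside the CTR range except that of GLLP3. Without GLLP3 the median of that list was -0.02, and without CTR1 it was 0.27.

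Growth and nutrient genes gave small medians. The insulin and IGF list had 20 of 23 positive values (median 0.28) and 21 without CTR5 (median 0.18). Igf1r, the receptor gene, was at 29.6, 44.1, 45.7, 52.3 and 29.0 CPM in CTR, against 36.8, 80.1, 33.0 and 51.9 CPM in GLLP, with overlap. The imprinted growth genes had medians of 0.26 and 0.31, and the amino acid starvation genes 0.05 and 0.14. With 1 library left out at a time, the amino acid starvation median lay between -0.13 (without GLLP3) and 0.23 (without GLLP4), and that of insulin and IGF between 0.18 (without CTR5) and 0.45 (without GLLP3). Psat1, of serine synthesis, was at 23.8 CPM in GLLP1 and between 2.76 and 14.0 CPM in the other 8 libraries. Cell cycle genes had 26 of 36 negative values (median -0.22) and 30 without CTR5 (median -0.20), with a median of -0.11 without GLLP2 and -0.35 without GLLP3. Ccnb1, the mitotic cyclin gene, was at 2.15, 1.20, 0.857, 1.27 and 0.618 CPM in CTR, against 0.621, 0.538, 0.759 and 0.766 CPM in GLLP. Without CTR5 its groups did not overlap (log2 fold change -1.02, SE 0.38, unadjusted p = 0.0234, edgeR adjusted p = 0.9996). Cdkn2a, the cell cycle inhibitor gene, had a log2 fold change of -1.05 (SE 0.44) with 9 libraries and -0.83 without CTR5.

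For ribosomal protein and oxidative phosphorylation genes the diet medians came almost entirely from CTR5. Of 58 ribosomal protein genes 57 had negative values with 9 libraries (median -0.52), and 53 without CTR5, where the median was -0.10. Rpl18 was at 645, 404, 547, 456 and 4532 CPM in CTR, against 530, 431, 520 and 369 CPM in GLLP, so that without CTR5 the groups intermixed (log2 fold change -1.51 with CTR5 and -0.15 without it). Ribosomal protein genes have near-identical copies, and their counts are uncertain. Of 39 oxidative phosphorylation genes 34 had negative values in both fits, with medians of -0.52 and -0.09. Atp5g1, an ATP synthase subunit gene, was at 625 CPM in CTR5 and between 55.7 and 155 CPM elsewhere. The antioxidant list moved from -0.26 to 0.05 and the erythroid list from -1.06 to 0.19 when CTR5 was left out.

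**Figure D3:**
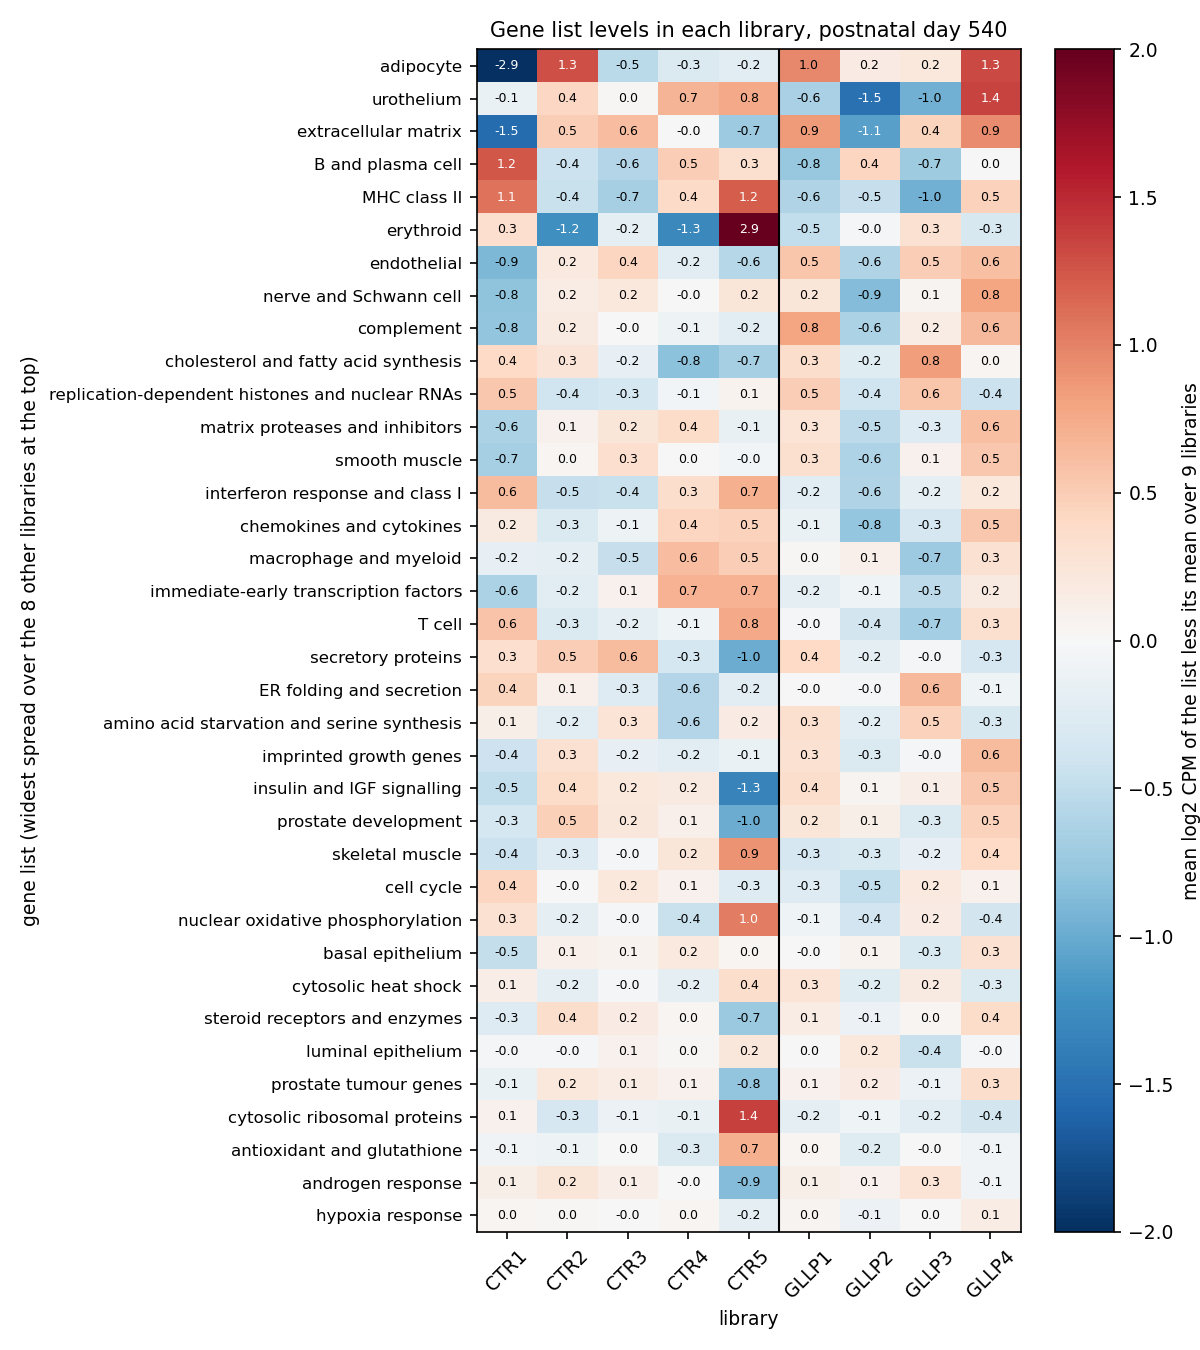
Scores of gene lists with at least 5 tested genes (rows) in each library (columns, CTR left of the line and GLLP right of it); colour and numbers give the mean log2 CPM of the list less its mean over 9 libraries. The adipocyte score runs from -2.92 in CTR1 to 1.32 in GLLP4, and ribosomal protein and erythroid scores are high in CTR5.

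The spread between glands was large at this age in both groups. The biological coefficient of variation, the square root of edgeR's common dispersion, was 46.2% over 9 libraries and 34.4% without CTR5. It was 52.2% in CTR with CTR5, 32.6% in CTR1 to CTR4 and 36.0% in GLLP. The median standard deviation of log2 CPM was 0.29 in CTR1 to CTR4 and 0.33 in GLLP, and 57.1% of genes had the higher value in GLLP. Over the 8 libraries other than CTR5, 948 genes (6.42%) had a standard deviation above 1. By contrast, Gapdh, of glycolysis, stayed between 157 and 217 CPM in those libraries.

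Some of the most variable genes had high counts in certain glands and very low counts in others, in both diets. Fam111a, a gene with a protease domain linked to DNA replication, was at 1.29, 436, 246, 307 and 164 CPM in CTR1 to CTR5, against 1.06, 295, 586 and 6.59 CPM in GLLP1 to GLLP4. CTR1, GLLP1 and GLLP4 were low and the others at least 164 CPM. Piwil4, a small RNA binding gene known from the germ line, was at 9.27, 281, 186, 9.34 and 9.76 CPM in CTR, against 181, 7.15, 12.0 and 180 CPM in GLLP. It was high in CTR2, CTR3, GLLP1 and GLLP4 and low in the other 5, with no value between 12.0 and 180 CPM. CTR1 was low for both genes, whereas GLLP1 and GLLP4 were low for Fam111a and high for Piwil4.

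Enam, a matrix gene known from tooth enamel, ranked with the kallikreins: 3.47, 15.2, 42.7, 1.00 and 0.618 CPM in CTR and 36.9, 3.26, 73.6 and 22.4 CPM in GLLP. It was low in CTR1, CTR4, CTR5 and GLLP2, where Andpro was low as well. Prol1, a proline-rich secretory gene, was at 3.86, 7.10, 12.3, 19.9 and 12.9 CPM in CTR, against 40.2, 341, 14.1 and 5.02 CPM in GLLP, with GLLP2 far above the rest. Its log2 fold change was 3.16, and 0.86 without GLLP2. Car3, a carbonic anhydrase gene of adipocytes and muscle, was at 3.29, 234, 24.4, 51.9 and 30.5 CPM in CTR, against 94.2, 88.8, 85.5 and 237 CPM in GLLP. It followed Adipoq, with CTR1 the lowest and CTR2 and GLLP4 the highest.

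**Figure D4:**
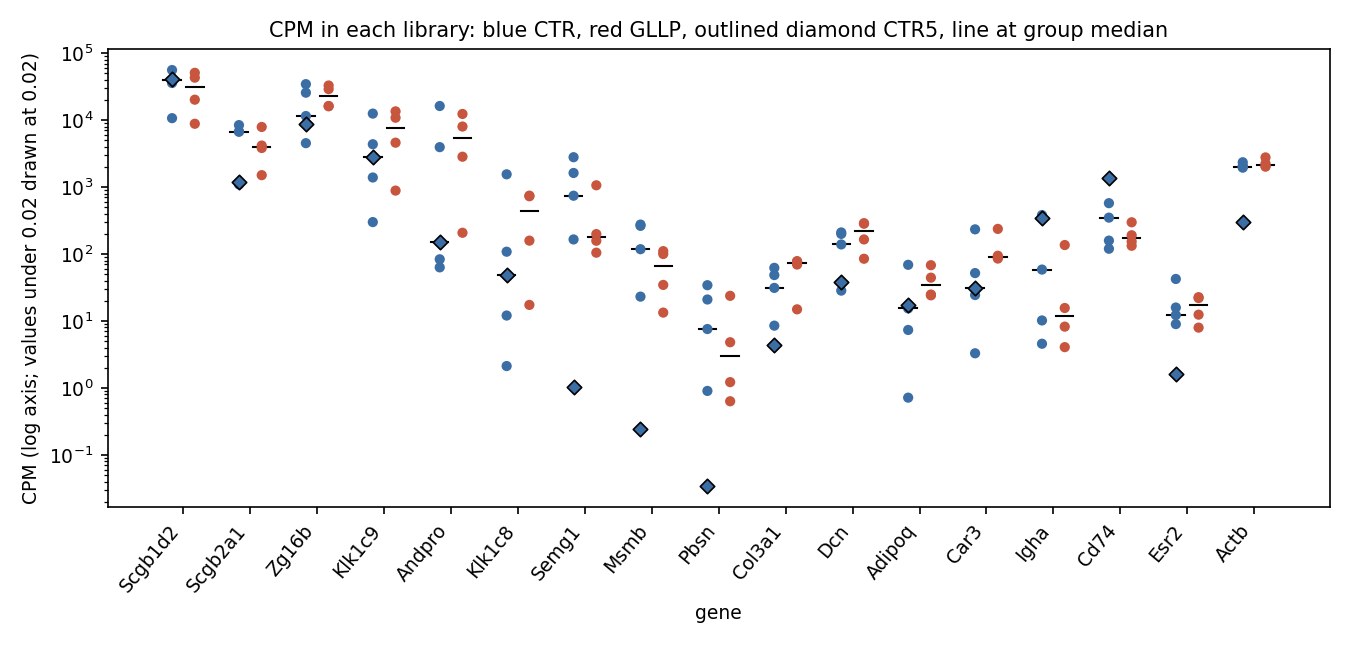
CPM on a log axis for 17 genes in each library: blue points are CTR, red points GLLP, outlined diamonds CTR5, and lines mark the median of each group. Andpro spans 63.2 to 16236 CPM and Adipoq 0.716 to 69.0 CPM over the 8 other libraries with the diets intermixed, and CTR5 lies below all others for Semg1, Msmb, Pbsn and Actb.

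After CTR5, GLLP3 was the library most often at an end of the range, the highest or lowest of 9 at 25.6% of genes. Slc5a11, a sugar transporter gene, was at 31.7 CPM in GLLP3 and at most 0.412 CPM in the other 8 libraries. Tcerg1l was at 62.9 CPM there and between 0.103 and 9.65 CPM elsewhere, and Ldoc1 at 81.7 CPM against 0.585 to 18.9 CPM. Cyp2b2, a drug-metabolising cytochrome P450 gene, was at 49.1 CPM against 1.43 to 11.1 CPM. Below all other libraries, GLLP3 held the ubiquitin-like gene Ubd at 14.8 CPM against 63.2 to 340 CPM, the zinc transporter gene Slc30a2 at 19.5 CPM against 76.4 to 188 CPM, and the metalloproteinase gene Mmp15 at 49.5 CPM against 123 to 620 CPM. These genes were taken because GLLP3 lay outside the range of all other libraries. Its distance from the other GLLP glands therefore follows from the choice.

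Some genes were far higher in CTR5 than in any other library. Hba1, an alpha globin gene with near-identical copies, was at 1499 CPM in CTR5 and at 21.1 to 129 CPM elsewhere. Cd99, an adhesion molecule gene, was at 587 CPM against 38.2 to 68.4 CPM. Scand1 was at 827 CPM against 48.6 to 106 CPM, and Inafm1 at 141 CPM against 4.74 to 14.8 CPM. Of 58 ribosomal protein genes 54 were highest in CTR5, as were 31 of 39 oxidative phosphorylation genes and 5 of 5 erythroid genes, beside 34.3% of all tested genes. The median differences from the median of the other 8 libraries were 1.45, 1.56 and 3.47 on the log2 scale for the 3 lists. MHC class II genes had 1.74, with 6 of 10 highest in CTR5, and macrophage genes 1.43, with 10 of 21.

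Other genes were almost missing in CTR5. Usp22, a deubiquitinase gene, was at 0.0344 CPM in CTR5 and between 35.2 and 65.0 CPM in the others. Ids, a lysosomal sulfatase gene, was at 0.103 CPM against 26.0 to 57.4 CPM, and Elovl7, of fatty acid elongation, at 0.550 CPM against 60.5 to 122 CPM. Msn, the membrane linker moesin, was at 0.206 CPM against 27.2 to 65.1 CPM. Even Actb, the cytoplasmic actin gene, was at 300 CPM against 1949 to 2773 CPM, whereas Gapdh was at 246 CPM against 157 to 217 CPM. The insulin and IGF, steroid receptor and enzyme, prostate development and androgen response lists had median differences of -1.10, -0.92, -0.90 and -0.84 on the log2 scale. The extracellular matrix and prostate tumour lists followed with -0.75 and -0.70. CTR5 was the lowest library at 13 of 23 insulin and IGF genes and 8 of 17 steroid genes. The same held for 8 of 23 development genes and 16 of 30 androgen response genes, beside 36.4% of all tested genes.

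The level in CTR5 went with gene span, the distance from the start to the end of a gene in RefSeq, known for 92.4% of tested genes. Tested genes were put in 4 equal bins by span. In the bin of the shortest spans the median gene was 0.87 above the median of the other libraries on the log2 scale, and 59.3% were highest in CTR5. In the bin of the longest spans it was 0.86 below, and 56.8% were lowest in CTR5. The other 8 libraries had medians between -0.19 and 0.14 in these bins, and some of them had smaller trends. From the shortest to the longest bin CTR1 fell from 0.13 to -0.19 and CTR2 rose from -0.11 to 0.13. Across genes the Spearman correlation of this difference with span was -0.43 in CTR5, and ran from -0.23 in CTR1 to 0.30 in CTR2 among the others. The median diet fold change was -0.26 in the shortest and 0.19 in the longest bin with CTR5, and -0.03 and 0.06 without it. Usp22, Ids and Msn show that the low genes of CTR5 include widely expressed ones as well as Semg1, Msmb and Pbsn.

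**Figure D5:**
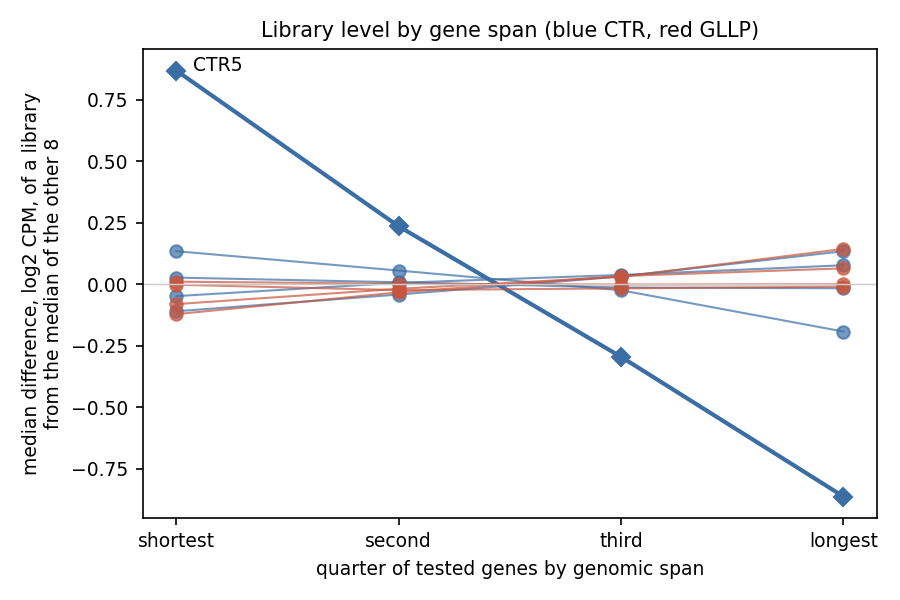
Median difference of each library from the median of the other 8 (log2 CPM) in 4 equal bins of tested genes by genomic span; each line is a library, blue for CTR and red for GLLP, with diamonds for CTR5. CTR5 falls from 0.87 in the bin of shortest spans to -0.86 in the longest, and the other libraries stay between -0.19 and 0.14.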

How the data were processed

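The authors deposited raw counts per gene in 1 table for this age, with 24218 entries of which 19714 held counts. They were not normalized, and STAR, edgeR 3.34.0 and the build Rnor_6.0 are named, without roles, per the submitters' processing notes. The sources used here do not give the counting tool, the annotation or the strand setting. Members, lists and the rules for naming genes were chosen with earlier results of these data known.

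The tool for the fits was edgeR 4.0.16 under R 4.3.3 (genes kept by filterByExpr, TMM, robust quasi-likelihood test, Benjamini-Hochberg adjustment, threshold 0.05). Fits were made with 9 libraries and with 8, without CTR5. The fit was tested on simulated data, which held no outlying library such as CTR5. No pair of libraries of the same diet agreed within sampling noise, and pairs across diets were not compared in this way. Log2 CPM used a prior count of 2. Named genes are, in each direction, the 6 with the smallest p (mean of at least 1 CPM) in each fit, the 6 with the largest fold change among groups without overlap (at least 5 CPM), the 10 of largest standard deviation over the 8 libraries, those farthest outside the range in CTR5 (8) and in the next most extreme library, GLLP3 (5), all at 20 CPM or more, and members of 39 lists. Some genes that the rules take are not described. Alternatives were RLE size factors, library size alone, no filter, 1 CPM in 4 libraries, non-robust dispersions, DESeq2 1.42.0, voom of limma 3.58.1, a replicate block, another prior count and leaving out each library. Sequences are RefSeq GRCr8. Figures used matplotlib 3.10.9.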

Additional observations from a re-analysis of the deposited data

Results flagged for a closer look

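Within each diet group, a library is listed here when its distance to the nearest other library, divided by the range of the group, passed the limit of Dixon's test at a p of 0.05. Of 136 groups of values 24 did so, and 17 of these were set by CTR5. Chance gives about 1 in 20, but no rate can be read from these counts: CTR5 was already known to stand apart, and several of the genes were named for fold changes that CTR5 enlarges.

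CTR5 stood apart in the share of genes at which it was the highest or lowest library, 70.7% against 7.56% to 18.0% in the other CTR libraries. Its median correlation with the other libraries was 0.851 against 0.956 to 0.969, and its score on the first component was 173 against -35.8 to 2.03. Its list scores were 1.37 for ribosomal proteins (others -0.34 to 0.08), 0.72 for antioxidant genes (-0.28 to 0.01), -0.87 for the androgen response (-0.01 to 0.24) and -0.19 for the hypoxia response (-0.01 to 0.04).

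Among named genes CTR5 was above the other CTR libraries for Atrip (47.7 CPM against 8.22 to 13.3), Fdxr (19.4 CPM against 4.64 to 6.15) and Fra10ac1 (53.6 CPM against 15.3 to 18.9). The same held for Nrtn (44.8 CPM against 5.98 to 6.15), Shkbp1 (95.6 CPM against 24.5 to 31.8) and Smim22 (292 CPM against 51.5 to 60.5). CTR5 was below the others for Epas1 (0.550 CPM against 31.1 to 43.6), Gramd1c (0.0687 CPM against 4.44 to 4.89), Ralgps2 (0.447 CPM against 4.58 to 5.29) and Stard13 (9.90 CPM against 26.9 to 38.2).

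CTR4 had 0.0413% of its counts on the mitochondrial ribosomal RNA genes, against 0.0176% to 0.0208% in the other CTR libraries, and 6.07 CPM of Cyp2c11 against 0.572 to 1.13. CTR1 had the lowest scores of basal epithelium genes (-0.48 against 0.04 to 0.20) and of nerve and Schwann cell genes (-0.81 against -0.01 to 0.24). In the GLLP group, GLLP2 had an endothelial score of -0.60 against 0.50 to 0.61. GLLP3 had a score of 0.64 for endoplasmic reticulum folding genes against -0.08 to 0.00, and 3.70 CPM of Fdxr against 4.34 to 4.41.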

How the results depend on the processing

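No alternative other than DESeq2 called a gene, with 9 libraries or without CTR5, while DESeq2 called 2 in each. The replicate block, which needs CTR5 left out, called 0 genes, with 254 under an unadjusted p of 0.05. Correlations of same-numbered deviations ran from -0.208 to 0.348, and 1 of 4 CTR libraries was closest to the GLLP library of its own number. These values cannot tell whether equal numbers share a litter or batch. The GLLP numbers differ between the sample titles and descriptions, and those of the titles were used. Genes under an unadjusted p of 0.05 numbered 82 to 325 with 9 libraries and 77 to 363 without CTR5. With 9 libraries the counts were 325 without CTR2, 324 without a filter, 291 without GLLP4, 259 by DESeq2 and 232 without CTR3. Without CTR5 and beside the block, counts included 363 without GLLP4, 288 without CTR2, 247 without a filter and 190 without GLLP2. Other than by DESeq2, the smallest adjusted p without CTR5 was 0.0754, with CTR2 also left out. Without CTR5 component 1 held 30.6% of the variance, and the biological coefficient of variation was 34.4%. Of 26 genes named for small p-values or for groups without overlap, none reversed under the alternatives that could fit them. These genes were chosen for their difference in the same libraries, so reversals were unlikely from the start and nothing is concluded from it. Other named genes were not refitted. Voom gave list medians of -0.22 for MHC class II, -0.03 for interferon, -0.02 for T cell, 0.09 for macrophage, 0.28 for extracellular matrix and 0.07 for insulin and IGF genes. The replicate block gave 1.27 for adipocyte genes. The cause of these shifts was not tested. Counts below about 1 CPM limit genes such as Fuom and Marf1, and group sizes of 5 and 4 limit the rest.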

Other observations

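The genes in this section were chosen after their values were seen, from those that varied most between libraries, and no group of them was tested. Foxi1 and Atp6v1b1, both known from acid-secreting ionocytes of other epithelia, were highest in GLLP4 and CTR5, 1 gland of each diet. Foxi1, a transcription factor gene, was at 20.3, 35.6, 14.8, 33.5 and 133 CPM in CTR1 to CTR5, against 13.1, 10.5, 15.3 and 124 CPM in GLLP1 to GLLP4. The proton pump subunit gene Atp6v1b1 was at 77.3 CPM in CTR5 and 87.9 CPM in GLLP4, and at 8.10 to 24.8 CPM elsewhere. Kit, a receptor tyrosine kinase gene, and Stap1, a signalling adaptor gene, were high in GLLP4 alone, at 116 and 117 CPM, with at most 34.8 and 35.0 CPM in any other library.

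Among genes of the circadian clock, Dbp, Nr1d1 and Arntl had their extreme levels in CTR4 and CTR5, and Per3 did not follow. Dbp, a clock-controlled transcription factor gene, was at 83.3 and 87.0 CPM in these and at 9.55 to 31.1 CPM elsewhere. Nr1d1, a clock repressor gene, was at 90.0 and 87.6 CPM, and at 11.5 to 39.7 CPM elsewhere. Arntl, which encodes an activating clock factor, had its lowest levels in the same libraries, 14.9 and 12.9 CPM against 21.0 to 52.9 CPM. Per3 was highest in CTR4 at 26 CPM and lowest in CTR5 at 1.37 CPM. Of all tested genes CTR5 was the highest or lowest library at 70.7% and CTR4 at 18.0%. An extreme level in CTR5 is therefore common and not particular to clock genes.

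A few genes had levels in separate ranges. Hps5, a gene of lysosome-related organelles, was at 287 CPM in CTR1 and 147 CPM in CTR4, and at 7.80 to 24.1 CPM elsewhere. Chm, which encodes a Rab escort protein, was at 129 CPM in CTR2, 87.4 CPM in CTR3, 119 CPM in GLLP2 and 187 CPM in GLLP3, and at 2.20 to 26.1 CPM elsewhere.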
